A study of Mus musculus with 10 samples.

Results

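Luminal cells of the mouse mammary gland, sorted as CD24highCD49fmed and CD24medCD49f-/low, were compared on expression arrays. Both came from virgin FVB females aged 6 to 8 weeks that carried no transgene or treatment named in the labels. All members of the comparison were chosen by the sort gate in the array titles, 2 arrays of each population, which are 4 of the 10 arrays of the study. The other 6 arrays are 2 each of CD24medCD49fmed, Thy-1+CD24medCD49fhigh and Thy-1-CD24medCD49fhigh cells, called the basal arrays here, and they served for the estimate of spread and as a reference range. Cells that stained for CD45, CD31 or Ter119 (leukocytes, endothelium and red cells), and per the methods also CD140α, were gated out of the dissociated glands, and the remainder was sorted in 2 rounds. Each array is a pool of sorted cells, and nothing in the labels states whether the arrays of a population came from different animals, so the p-values speak only for the variation among these particular samples, which may be technical. The study's text names a CD24lowCD49fmed gate for myoepithelial cells where the labels have CD24medCD49fmed.

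The mammary duct is a bilayer in which luminal cells line the lumen and contractile basal (myoepithelial) cells rest on the basement membrane. Luminal cells include dividing progenitors, commonly marked by the transcription factor Elf5 and the receptor Kit, and hormone sensing cells with the estrogen receptor Esr1 and the progesterone receptor Pgr. In the study, CD24highCD49fmed is the gate that holds colony-forming cells and CD24medCD49f-/low a gate of luminal cells, where CD24 is a glycoprotein of epithelial cells and CD49f is integrin α6, encoded by Itga6. The comparison asks in which genes these gates differ.

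The values are log2 intensities centered on a mean of 0 over the 10 arrays for every probe set, so that a value gives the position of an array among the others and not the abundance of an RNA. Probe sets with 1 gene symbol were averaged per gene, which gave 2560 named genes, and 372 probe sets without exactly 1 symbol were tested alone. Every probe set, before averaging, varied by a log2 range of at least 2.0 between some arrays, since the authors had removed the others. In all, 2932 features were tested. A difference is the mean of the CD24highCD49fmed arrays minus that of the CD24medCD49f-/low arrays (n = 2 each), and limma's p-value, adjusted over all features by the method of Benjamini and Hochberg, had to be under 0.05 for a call. A gene was said not to overlap when both arrays of one population lay above both of the other.

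The arrays of the 2 populations differed in how well they matched their partners. The CD24highCD49fmed arrays had a correlation of 0.915 over features and a mean absolute difference of 0.377. The CD24medCD49f-/low arrays had a correlation of 0.291 and a mean absolute difference of 0.945. CD24medCD49f-/low replicate 1 correlated at 0.758 with CD24highCD49fmed replicate 1 and at 0.671 with replicate 2. CD24medCD49f-/low replicate 2 correlated with the same arrays at 0.392 and 0.541, so each correlated more with the arrays of the other gate than with its own partner. Differences of the called genes, and list medians that moved, are therefore also given with these arrays left out. The median of all differences was 0.345, and it became -0.03 once each array was centered on its own median and 0.01 under quantile normalization, so the differences below are to be read against this general shift.

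The genes called higher in CD24highCD49fmed cells act in mitosis, and those called lower had their highest values in the basal arrays. Of 2932 features, 2 were called higher (0.0682%) and 4 lower (0.136%), and all 6 were named genes. Ect2 and Spc25 rose by log2 differences of 3.07 and 2.83. Myl9, Tgfb1i1, Ism1 and Sparc fell and had log2 differences of -2.95, -2.89, -2.46 and -2.36. All 6 calls were lost after quantile normalization, with array weights and with only the 4 luminal arrays in the fit. They were also lost without either CD24highCD49fmed array and without any single Thy-1+ or Thy-1- array. Both arrays of a population had the same weight, so the weights do not grade the quality of single arrays. In contrast, more features were called without either CD24medCD49f-/low array. In those fits the spread between the arrays of that gate no longer counts, so a call kept there is not a check of the gene.

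The arrays of the 2 gates did not overlap for 1102 features that were higher in CD24highCD49fmed cells (37.6%) and for 415 that were lower (14.2%). Centering each array on its median turned these counts into 543 higher and 730 lower, and quantile normalization into 588 and 512, so the excess of higher features moved with the scaling. At an unadjusted p under 0.05 there were 380 higher features (13.0%) and 71 lower (2.42%). The plot of all features shows that the mitosis and DNA replication genes lay on the higher side and most contractile and basal genes on the lower side.

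**Figure D1:**
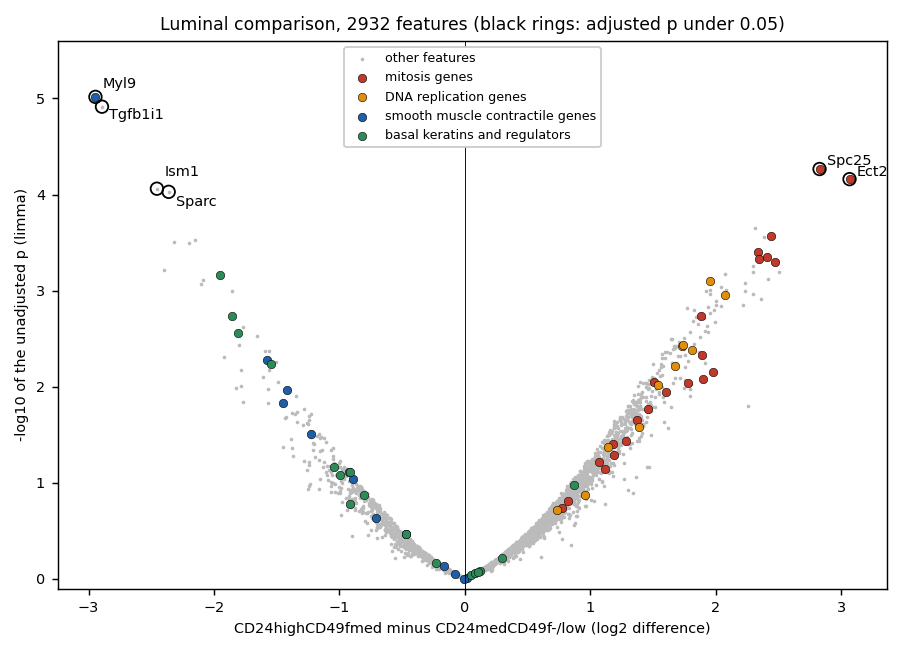
Log2 difference between CD24highCD49fmed and CD24medCD49f-/low cells (x axis, 2 arrays each) against -log10 of the unadjusted limma p (y axis) for 2932 features. Black rings mark the 6 called genes, Ect2 and Spc25 on the right and Myl9, Tgfb1i1, Ism1 and Sparc on the left, and colors mark 4 gene lists.

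Ect2 encodes a protein that drives cytokinesis. Its values were -1.53 and -1.39 in the CD24medCD49f-/low arrays and 1.54 and 1.67 in the CD24highCD49fmed arrays, a difference of 3.07 ± 0.62 (SE), or 8.38-fold (adjusted p = 0.0458). Both CD24medCD49f-/low values lay below the 6 basal arrays, which ran from -0.92 to 1.46, and both CD24highCD49fmed values lay above them. Spc25, a subunit of the Ndc80 kinetochore complex, had values of -1.52 and -1.25 in CD24medCD49f-/low and 1.52 and 1.37 in CD24highCD49fmed cells, a difference of 2.83 ± 0.56, or 7.10-fold (adjusted p = 0.0458). The CD24medCD49f-/low arrays again lay below the basal range of -1.09 to 1.38, whereas only 1 of the CD24highCD49fmed arrays passed above it. Without CD24medCD49f-/low replicate 1 the differences were 2.994 for Ect2 and 2.692 for Spc25, and without replicate 2 they were 3.141 and 2.965.

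The 5 genes with the next largest differences among those not overlapping were not called, with adjusted p between 0.0781 and 0.0876. They were 2700099C18Rik (2.51 ± 0.63), Nusap1 (2.48 ± 0.60), Bub1 (2.44 ± 0.56), Cdca8 (2.42 ± 0.62) and Top2a (2.41 ± 0.58). Nusap1 binds spindle microtubules, Bub1 is a kinase of the spindle checkpoint, Cdca8 (borealin) is part of the chromosomal passenger complex, and Top2a is the topoisomerase that untangles sister chromatids. Top2a, for example, had values of -1.87 and -1.31 in CD24medCD49f-/low and 0.70 and 0.95 in CD24highCD49fmed cells. The CD24medCD49f-/low arrays differed more from each other in Cdca8 (-2.26 and -0.58) and Nusap1 (-1.92 and -0.58) than in Bub1 (-1.45 and -1.15). Over all ways of processing, the difference ran from 1.923 to 2.799 in 2700099C18Rik and from 1.800 to 3.150 in Nusap1. It ran from 1.700 to 2.859 in Bub1, from 1.583 to 3.259 in Cdca8 and from 1.699 to 2.689 in Top2a.

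Of 34 mitosis genes listed, 23 were measured, and 2 of them, Ect2 and Spc25, were called. All 23 had a positive difference and all 23 did not overlap, beside 37.6% of all features, and 18 had an unadjusted p under 0.05, beside 13.0% of all features. Their differences ran from 0.77 in Tpx2 to 3.07 in Ect2 with a median of 1.78, against 0.345 for all features. The direction held under every scaling, with medians of 1.40 for median-centered arrays and 1.14 for quantile normalization, and 21 and 20 genes that did not overlap, and the median lay between 1.57 and 1.91 with any one of the 4 luminal arrays left out. In 11 of the 23 the gene is in a luminal gene set that the study drew from its arrays, these included, so the count is not independent evidence of its direction. Mki67, the proliferation antigen Ki-67, chosen here after its values were seen, had values of -1.30 and -0.67 in CD24medCD49f-/low and 0.48 and 0.75 in CD24highCD49fmed cells (adjusted p = 0.217).

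In DNA replication, 11 of 25 listed genes were measured and none was called, although 9 of the 11 did not overlap (beside 37.6% of all features) and the same number had an unadjusted p under 0.05 (beside 13.0%), in each case higher in CD24highCD49fmed cells. The median difference was 1.68 (1.30 with array medians at 0 and 1.11 with quantile normalization, the order kept for the other lists), and 5 of the 11 are in the study's luminal sets. Gins1, a subunit of the replicative helicase complex, had values of -1.14 and -0.86 in CD24medCD49f-/low and 1.34 and 0.82 in CD24highCD49fmed cells (2.08 ± 0.55, adjusted p = 0.0881). Dut, which keeps uracil out of DNA, had -1.59 and -1.26 against 0.46 and 0.61 (1.96 ± 0.50, adjusted p = 0.0876). Mcm6 (1.81), a helicase subunit, Rfc4 (1.74), a subunit of the clamp loader, Rrm2 (1.73), a subunit of ribonucleotide reductase, and Prim1 (1.68), the primase, followed, with adjusted p from 0.154 to 0.171. For Mcm5 and Rrm1, CD24medCD49f-/low replicate 1 alone was low, at -1.72 and -1.51, while replicate 2 lay at 0.32 and -0.11 and overlapped with the CD24highCD49fmed arrays.

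**Figure D2:**
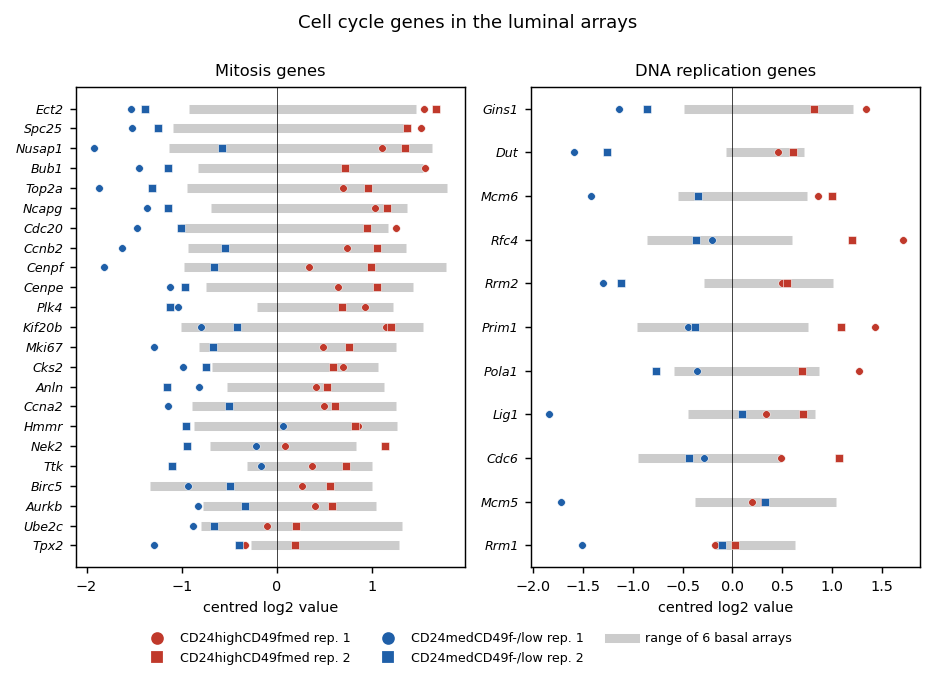
Centered log2 values (x axis) of the 23 mitosis genes and 11 DNA replication genes in each luminal array, with the range of the 6 basal arrays as a grey bar. The blue CD24medCD49f-/low points lie left of the red CD24highCD49fmed points for all 23 mitosis genes, and the red points mostly fall inside the basal range.

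The basal arrays served as a reference for this difference. Both CD24medCD49f-/low arrays lay below all 6 basal arrays in 10 of the 23 mitosis genes, beside 834 of all 2932 features. Both CD24highCD49fmed arrays lay above them in 1, Ect2, beside 1304 of all 2932 features. By array, the median of the mitosis genes was -1.14 and -0.94 in CD24medCD49f-/low, 0.69 and 0.82 in CD24highCD49fmed, and from -0.81 to 1.28 in the basal arrays, so the CD24highCD49fmed cells fell within the basal spread. For the DNA replication genes the CD24highCD49fmed arrays lay above the basal range in 4 of 11 and the CD24medCD49f-/low arrays below it in 3. Neither share was larger than that of all features. In pools of sorted cells, fewer cells of a type and less RNA per cell cannot be told apart. Cdkn1a, the cell cycle inhibitor p21, which the study names, had values of -0.79 and 0.14 in CD24medCD49f-/low and -1.17 and -0.92 in CD24highCD49fmed cells (-0.72 ± 0.52, adjusted p = 0.471).

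Promoter sequence was examined for the cell cycle, contractile and milk protein genes. The sequences are from RefSeq (build GRCm38.p6) and run from 250 bases before to 50 bases after a transcription start, and 2002 of the 2560 named genes matched, with 2652 promoters. Motifs were searched on both strands, and a match is a description of letters, not of a bound site. TTTGAA, known as the cell cycle homology region, and CCAAT, the box bound by NF-Y, were chosen after the data were seen. TTTGAA occurred in 14 of 21 promoters of the mitosis genes (66.7%), in 12.1% of the promoters of all genes in the table and in 17.9% of all 32851 promoters. CCAAT occurred in 16 of the 21 (76.2%), in 36.8% of those in the table and in 37.4% of all promoters. In other lists CCAAT occurred in 6 of 10 promoters of contractile, 6 of 12 of DNA replication, 2 of 5 of milk protein and 3 of 14 of basal genes. TTTGAA occurred in 3 of 5 promoters of milk protein, 1 of 10 of contractile and 1 of 14 of basal genes. None of the 12 promoters of the DNA replication genes held TTTGAA. The E2F motif TTTGGCGC, also chosen later, occurred in 3 of these 12 (25%), beside 0.905% in the table and 0.514% of all, and the E2F motif TTTCCCGC in 1 (8.33%), beside 1.55% and 1.07%.

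The bases before the start are shown for the 2 called mitosis genes and for Cdc20 and Top2a, which carry both motifs there, with matches to TTTGAA and CCAAT, on either strand, in capitals. No matches shared a base. In Spc25 the match to TTTGAA lies behind the start and is not shown. Cdc20, the activator of the anaphase promoting complex, chosen for this after its values were seen, had a difference of 2.34 ± 0.56 (adjusted p = 0.0866).
Ect2 (chr3:27153879-27154128, minus strand): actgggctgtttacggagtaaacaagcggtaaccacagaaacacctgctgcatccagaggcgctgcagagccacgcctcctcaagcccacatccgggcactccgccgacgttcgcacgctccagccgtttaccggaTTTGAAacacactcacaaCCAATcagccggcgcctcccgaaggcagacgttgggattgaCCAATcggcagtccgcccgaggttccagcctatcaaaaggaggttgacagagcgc
Spc25 (chr2:69206214-69206463, minus strand): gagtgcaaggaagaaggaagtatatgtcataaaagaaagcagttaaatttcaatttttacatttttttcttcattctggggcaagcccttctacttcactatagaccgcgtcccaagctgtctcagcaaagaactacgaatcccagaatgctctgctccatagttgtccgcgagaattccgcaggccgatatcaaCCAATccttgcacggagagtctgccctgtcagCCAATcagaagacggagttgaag
Cdc20 (chr4:118437344-118437593, minus strand): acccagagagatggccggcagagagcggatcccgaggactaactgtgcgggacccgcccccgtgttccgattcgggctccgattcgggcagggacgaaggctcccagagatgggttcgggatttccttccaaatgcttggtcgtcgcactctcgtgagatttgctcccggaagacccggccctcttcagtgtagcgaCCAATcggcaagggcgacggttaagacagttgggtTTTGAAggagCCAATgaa
Top2a (chr11:99024190-99024439, minus strand): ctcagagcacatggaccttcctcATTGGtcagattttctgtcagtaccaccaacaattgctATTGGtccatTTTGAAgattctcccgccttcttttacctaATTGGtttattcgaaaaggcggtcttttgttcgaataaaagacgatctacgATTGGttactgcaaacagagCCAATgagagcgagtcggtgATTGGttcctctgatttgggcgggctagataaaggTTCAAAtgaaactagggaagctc

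In the Ect2 entry shown TTTGAA lies at -114 and CCAAT at -96 and -55 from the start. The base before the start is -1, and positions are of the leftmost base. Behind that start TTTGAA at 39 and CCAAT at 1 are not shown. A second promoter entry of Ect2 has TTTGAA at -138 and 15 and CCAAT at -120, -79 and -23. In Cdc20 TTTGAA lies at -18 between matches to CCAAT at -53 and -8, and Top2a has TTTGAA at -179 and -23 and matches to CCAAT at -227, -189, -149, -98, -78 and -58. The planned motifs included TGTTTAC, a forkhead motif, which occurred in 1 of the 21 promoters of mitosis genes (4.76%), beside 2.87% in the table and 3.65% of all.

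The called genes that were lower in CD24highCD49fmed cells have different roles. Myl9, the regulatory light chain of smooth muscle myosin, had values of -0.82 and -0.26 in CD24medCD49f-/low and -3.83 and -3.14 in CD24highCD49fmed cells, and fell by 2.95 ± 0.51 on the log2 scale, or 7.71-fold (adjusted p = 0.0179). Tgfb1i1 (Hic-5), a focal adhesion protein, had values of -0.19 and -0.62 against -3.29 and -3.31, and fell by 2.89 ± 0.51, or 7.43-fold (adjusted p = 0.0179). Both luminal gates lay below the basal arrays in both genes, whose lowest basal values were 1.04 and 0.71. The CD24medCD49f-/low arrays were between the CD24highCD49fmed and the basal arrays. Without CD24medCD49f-/low replicate 1 the differences were -3.223 for Myl9 and -2.676 for Tgfb1i1, and without replicate 2 they were -2.669 and -3.111.

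Ism1, a secreted protein, had values of -1.21 and -0.84 in CD24medCD49f-/low and -3.78 and -3.18 in CD24highCD49fmed cells and fell by 2.46 ± 0.51 (adjusted p = 0.0458). Sparc, a collagen-binding protein of the matrix, had values of -1.48 and -1.11 against -3.81 and -3.49 and fell by 2.36 ± 0.49, or 5.14-fold (adjusted p = 0.0458). These genes too were below all basal arrays in both gates, and lowest in CD24highCD49fmed cells. The 5 next largest lower differences among genes not overlapping were not called. They were in Cxcl14 (-2.32), a chemokine, Igfbp3 (-2.15), an IGF binding protein, Mark1 (-2.09), a microtubule affinity kinase, Id4 (-1.95), an inhibitor of basic helix-loop-helix factors found in basal cells, and Fabp4 (-1.92), a fatty acid binding protein, with adjusted p from 0.0781 to 0.161. Of the probe sets of Cxcl14, the one at -2.92 was called when tested alone (limma, adjusted p = 0.0263) and the one at -1.71 was not.

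Of 15 contractile genes listed, 12 were measured, 1 (Myl9) was called, and 8 did not overlap and were lower, beside 14.2% of all features. At an unadjusted p under 0.05 there were 5 lower, beside 2.42% of all features. The median difference was -0.80, against 0.345 for all features, and it was -1.18 and -0.40 under the other scalings, -0.45 without CD24highCD49fmed replicate 1 and -1.09 without replicate 2, while 3 of the 12 are in the study's luminal sets. Mylk, the kinase of myosin light chain, had values of -1.35 and -1.25 in CD24medCD49f-/low and -2.97 and -2.78 in CD24highCD49fmed cells (-1.58 ± 0.51, adjusted p = 0.166). Cnn1 (-1.45), which encodes calponin, Myh11 (-1.42), the smooth muscle myosin heavy chain, and Tagln (-1.23), transgelin, also did not overlap and were not called. Acta2, the smooth muscle actin and a defining basal gene, had values of -1.40 and -1.46 against -1.95 and -1.86 (-0.47 ± 0.49, adjusted p = 0.629). Its 3 probe sets disagreed, with differences of -1.37, -0.40 and 0.35, none of them called. Tpm2, a tropomyosin, had a difference of -0.89 without overlap, and the differences of the other members ran from -0.71 in Actg2, a smooth muscle actin, to 0.02 in Cald1, caldesmon. All 12 genes were below the basal range in both luminal gates, beside 739 of all 2932 features.

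The promoter of Myl9 is shown because it is the called gene of this list with a promoter entry, with its match to the CArG box, the motif of serum response factor, in capitals. The CArG box was searched after the data were seen and occurred in 2 of the 10 promoters of contractile genes (20%), in 1.77% of those in the table and in 1.63% of all. The match in Myl9 lies at -161.
Myl9 (chr2:156775214-156775463, plus strand): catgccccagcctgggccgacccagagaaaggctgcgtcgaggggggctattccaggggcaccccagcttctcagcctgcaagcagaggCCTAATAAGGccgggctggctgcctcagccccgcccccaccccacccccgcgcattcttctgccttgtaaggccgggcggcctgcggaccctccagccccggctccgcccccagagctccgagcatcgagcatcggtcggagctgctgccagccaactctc

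Of 20 listed basal keratins and regulators, 18 were measured and none was called. There were 11 that did not overlap and were lower (beside 14.2% of all features) and 1 (Tspan8) that was higher (beside 37.6%), and 4 were lower at an unadjusted p under 0.05 (beside 2.42%). The median difference was -0.86 (-1.23 and -0.40 under the other scalings), and 5 of the 18 are in the study's luminal sets. Krt5, a keratin of basal cells, had values of -1.77 and -1.24 in CD24medCD49f-/low and -3.26 and -3.46 in CD24highCD49fmed cells (-1.86 ± 0.52, adjusted p = 0.109). Krt17 (-1.81), Snai2 (-1.55), which encodes the transcription factor Slug, and Krt14 (-0.99) had the same order. The 2 probe sets of Snai2 differed, at -0.81 and -2.29, as did the 3 of Id4, of which 1 at -2.97 was called when tested alone (adjusted p = 0.0151) and the others, at -1.50 and -1.39, were not. Both CD24highCD49fmed arrays lay below the basal range in 17 of the 18, beside 1097 of all 2932 features, and both CD24medCD49f-/low arrays in 15, beside 834. Of the genes behind the sort, Itga6 had values of -1.63 and -1.12 in CD24medCD49f-/low and -1.38 and -1.26 in CD24highCD49fmed cells, which overlapped (0.05 ± 0.50, adjusted p = 0.963), and Cd24a was not in the table.

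**Figure D3:**
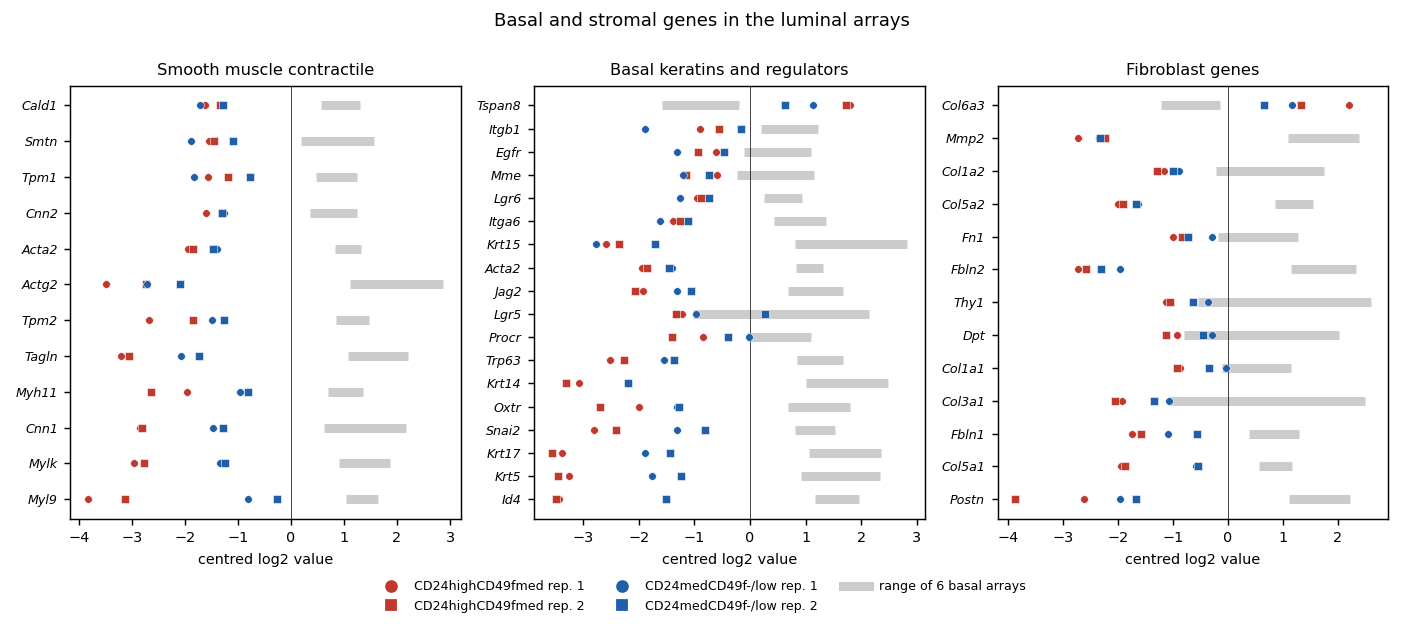
Centered log2 values (x axis) of contractile, basal and fibroblast genes in each luminal array, with the range of the 6 basal arrays as a grey bar. Most points of both gates lie left of the bars, and for Myl9, Mylk, Krt5 and Id4 the red CD24highCD49fmed points lie left of the blue CD24medCD49f-/low points.

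Genes of the matrix and of other cell types were examined beside these. Of 16 basement membrane genes 12 were measured, 1 (Sparc) was called, and 5 were lower and 2 higher without overlap, beside 14.2% and 37.6% of all features. Their median difference was -0.47 (-0.85 and -0.30 under the other scalings). Col4a1, a chain of type IV collagen, had values of -1.88 and -1.88 in CD24medCD49f-/low and -3.06 and -3.20 in CD24highCD49fmed cells (-1.24 ± 0.49, adjusted p = 0.244). Of 18 fibroblast genes 13 were measured and none was called. Without overlap 11 were lower and 1 (Col6a3, at 0.85) was higher, beside 14.2% and 37.6% of all features. These counts were 12 lower and 0 higher with array medians at 0, and 7 and 1 after quantile normalization. The median difference was -0.60 (-0.97 and -0.54 under the other scalings). The median value of these genes was -0.90 and -0.73 in the CD24medCD49f-/low arrays and -1.75 and -1.59 in the CD24highCD49fmed arrays, all below the basal arrays. Postn (-1.42), periostin, Col5a1 (-1.34) and the sort gene Thy1 (-0.60, with values of -0.36 and -0.63 against -1.13 and -1.06) were lower without being called. Of 11 pericyte genes 6 were measured with a median difference of -0.60 (-0.97 and -0.57 under the other scalings), and Rgs5 had the lowest, at -1.29, from probe sets at -2.04 and -0.53. What part fibroblasts, pericytes or basal cells in the sorted pools had in the lower genes was not tested.

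Markers of the cells that were gated out were scarce in the table. None of 16 endothelial genes, 2 of 22 leukocyte genes and 1 of 12 erythroid genes were measured. Arhgdib, a leukocyte gene, had a difference of 0.46 and Lcp1 one of 0.31. The hemoglobin gene Hba-a2 had -1.80 and 0.99 in the CD24medCD49f-/low arrays and -1.999 and -1.33 in the CD24highCD49fmed arrays. Of the luminal arrays only CD24medCD49f-/low replicate 2 lay within the range of the basal arrays, from 0.02 to 1.22, and the others lay below it. Of 14 Schwann cell genes 8 were measured with a median difference of -0.07 (-0.45 and -0.10 under the other scalings). Without overlap 2 were lower and none was higher, beside 14.2% and 37.6% of all features. Of 22 epidermal keratinocyte genes 11 were measured with a median of -0.22 (-0.60 and -0.20 under the other scalings, and -0.06 without CD24highCD49fmed replicate 2), and 4 were lower and 1 higher without overlap, beside 14.2% and 37.6% of all features. None of these genes was called.

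The luminal lineage genes gave no called difference between the gates. Of 22 luminal progenitor genes 14 were measured and none was called or had an unadjusted p under 0.05, and 4 were higher in CD24highCD49fmed cells without overlap, beside 37.6% of all features. Their median difference was 0.41, close to that of all features, and it turned to 0.03 for median-centered arrays, to -0.03 for quantile normalization and to -0.04 without CD24medCD49f-/low replicate 1. The median value over the list was 0.61 and 1.28 in the CD24medCD49f-/low arrays and 1.50 and 1.46 in the CD24highCD49fmed arrays, each above all basal arrays. Elf5 had values of 0.64 and 1.58 against 1.84 and 1.75 (0.68 ± 0.57, adjusted p = 0.544), from probe sets at 1.02 and 0.34. The study reports Elf5 as enriched in CD24medCD49f-/low cells of the C57BL6 strain, whereas the arrays here are from FVB mice. Kit had 0.41 and 1.89 against 1.36 and 1.53, and CD24medCD49f-/low replicate 2 was the highest of the 4. Cyp24a1 (1.01), which breaks down vitamin D, Ehf (0.98), an ETS factor, and Tspan8 (0.87), a tetraspanin, did not overlap.

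Of 24 hormone sensing genes 14 were measured and none was called, with a median difference of -0.17. It was -0.55 and -0.53 under the other scalings, -0.51 without CD24medCD49f-/low replicate 1, and 0.17 without replicate 2. On the values as deposited its direction thus rested on 1 array. Without overlap 1 was higher and 1 lower, beside 37.6% and 14.2% of all features. Under each of the other scalings 1 was higher and 6 were lower without overlap. Of all 2932 features, 543 were higher and 730 lower with array medians at 0, and 588 and 512 after quantile normalization. Esr1 had values of 0.92 and 1.67 in CD24medCD49f-/low and 1.08 and 1.37 in CD24highCD49fmed cells (-0.07 ± 0.58, adjusted p = 0.954). Pgr had 1.49 and 1.50 against 1.29 and 1.22, lower without overlap (-0.24 ± 0.55, adjusted p = 0.849). Foxa1, the pioneer factor that acts with Esr1, overlapped (0.22 ± 0.87), as did Tbx3, a T-box factor that the study names, with values of 0.22 and 1.07 against 0.27 and 0.74 (-0.14 ± 0.54, adjusted p = 0.909). For these 4 genes every luminal array was above all basal arrays. The member with the largest positive difference was Ptger3, a prostaglandin receptor, with -0.27 and -0.74 against 1.02 and 2.48 (2.26 ± 0.86, adjusted p = 0.238). Tnfsf11, the ligand RANKL of the progesterone response, chosen here after its values were seen, was high in 1 array, at 3.50 in CD24medCD49f-/low replicate 2, beside 0.58 in replicate 1 and 0.58 and -0.05 in the CD24highCD49fmed arrays.

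**Figure D4:**
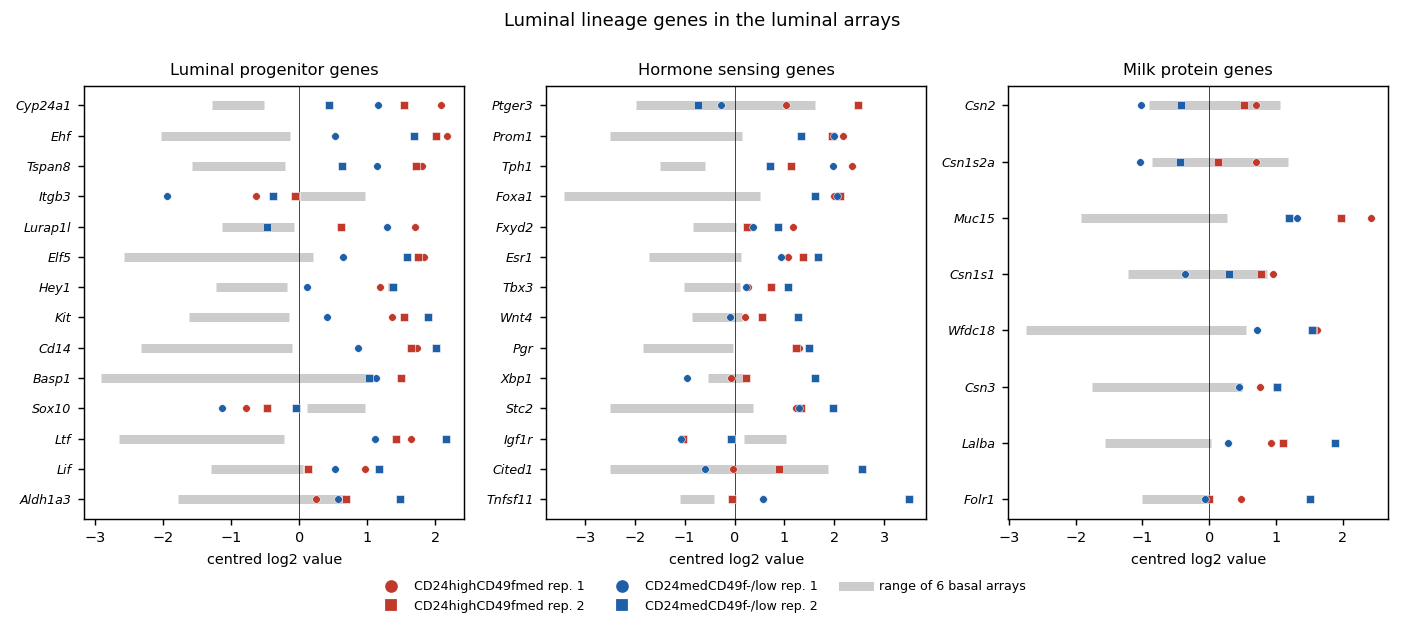
Centered log2 values (x axis) of luminal progenitor, hormone sensing and milk protein genes in each luminal array, with the range of the 6 basal arrays as a grey bar. Red and blue points overlap for most genes and lie for the most part to the right of the bars, and in Tnfsf11 one CD24medCD49f-/low array stands alone at 3.50.

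Milk protein genes were also compared, since luminal cells are the source of milk. Of 16 listed 8 were measured and none was called. There were 5 higher without overlap (beside 37.6% of all features), and the median difference was 0.68 (0.30 and 0.14 under the other scalings, and 0.31 without CD24medCD49f-/low replicate 1). Csn2, which encodes β-casein, had values of -1.02 and -0.43 in CD24medCD49f-/low and 0.70 and 0.53 in CD24highCD49fmed cells (1.33 ± 0.60, adjusted p = 0.283). Csn1s2a (1.15), Muc15 (0.94) and Csn1s1 (0.90) also did not overlap, while Csn3 (0.15), κ-casein, did. Csn2 and Csn1s2a lay within the basal range of -0.91 to 1.07 and -0.86 to 1.18 in CD24highCD49fmed cells.

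TTCNNNGAA, a motif of STAT factors, which carry the prolactin signal, had been planned and occurred in 3 of 5 promoters of milk protein genes (60%), in 6.07% of those in the table and in 8.30% of all. The matches of Csn2 at -93 and Csn1s1 at -100 are shown in capitals. That of Csn1s2a lies behind the start, at 20, and is not shown.
Csn2 (chr5:87699426-87699675, minus strand): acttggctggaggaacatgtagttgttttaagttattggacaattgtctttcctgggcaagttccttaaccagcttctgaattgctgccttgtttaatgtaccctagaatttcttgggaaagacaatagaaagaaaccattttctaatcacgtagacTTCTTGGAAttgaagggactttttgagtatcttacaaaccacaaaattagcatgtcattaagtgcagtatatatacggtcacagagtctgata
Csn1s1 (chr5:87665958-87666207, plus strand): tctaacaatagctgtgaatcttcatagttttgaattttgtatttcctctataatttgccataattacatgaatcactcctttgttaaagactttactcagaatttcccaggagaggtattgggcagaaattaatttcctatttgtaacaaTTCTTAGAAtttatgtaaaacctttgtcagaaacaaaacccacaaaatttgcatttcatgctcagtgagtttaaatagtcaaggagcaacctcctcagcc

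Of 20 genes of milk fat and secretion 12 were measured with a median difference of 0.27 (-0.11 and -0.19 under the other scalings), and none was called. Its direction rested on 1 array, since the median was -0.24 without CD24medCD49f-/low replicate 1 and 0.69 without replicate 2. Lpl, lipoprotein lipase, had values of -0.07 and -0.40 in CD24medCD49f-/low and 1.99 and 1.13 in CD24highCD49fmed cells (1.79 ± 0.64, adjusted p = 0.210), and Thrsp, a regulator of lipogenesis, had -0.51 and -0.48 against 1.90 and 0.07 (1.49 ± 0.57, adjusted p = 0.238). Fabp4 went the other way, with -0.51 and -0.40 against -2.04 and -2.71, as did Cd36 (-1.10), a fatty acid transporter. Fabp4, Cd36 and Lpl are also adipocyte genes, a list of which 5 of 14 were measured with a median difference of -0.81.

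Among luminal keratins and adhesion genes, 13 of 19 were measured, 2 were higher without overlap (beside 37.6% of all features), and none was called. The median difference was 0.03 (-0.35 and -0.46 under the other scalings), and it was -0.39 without CD24medCD49f-/low replicate 1 and 0.51 without replicate 2. Krt18 overlapped (0.20 ± 0.66, adjusted p = 0.896), as did Krt19, whose values were -0.99 and 1.75 in the CD24medCD49f-/low arrays and -0.33 and 1.08 in the CD24highCD49fmed arrays. Krt8 and the prolactin receptor gene Prlr were not in the table. Cldn8, a claudin of the tight junction, had 2.15 and 1.03 against 3.25 and 2.30 (1.19 ± 0.61, adjusted p = 0.351). Of 15 claudins 9 were measured, and 5 were higher without overlap (beside the same 37.6%), with a median difference of 0.37 that was -0.01 and -0.16 under the other scalings.

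Interferon response genes had a median difference of 0.86 over 11 of 28 measured (0.49 and 0.47 under the other scalings), and 5 were higher without overlap, beside 37.6% of all features. The median moved with 1 array: the median value of the list was 0.08 in CD24highCD49fmed replicate 1 and 1.46 in replicate 2, beside -0.56 and 0.14 in CD24medCD49f-/low, and the median difference was 1.46 without CD24highCD49fmed replicate 1 and 0.08 without replicate 2. Gbp3 and Gbp2, guanylate binding proteins, were higher in both arrays. Gbp3 had -0.75 and -0.69 against 0.82 and 1.83 (2.04 ± 0.56, adjusted p = 0.101), and Gbp2 had -0.25 and -0.16 against 1.24 and 1.64 (1.64 ± 0.49, adjusted p = 0.145).

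Signaling genes gave no call. Of 22 Notch genes 5 were measured with a median difference of -0.80 (-1.18 and -0.58 under the other scalings). This median turned to 0.05 without CD24medCD49f-/low replicate 2. Hey2, a target of Notch, had 0.52 and 0.64 in CD24medCD49f-/low and 1.96 and 1.39 in CD24highCD49fmed cells (1.09 ± 0.49, adjusted p = 0.281), while the ligands Dll1 (-0.92) and Jag2 (-0.80) were lower without overlap. Of 40 Wnt genes 13 were measured with a median difference of 0.08, and 4 were higher, among them the receptor Fzd7 (0.78), and 4 lower without overlap, among them the antagonist Wif1 (-0.95), beside 37.6% and 14.2% of all features. Of 29 TGF-beta and BMP genes 10 were measured with a median of -0.04. Id2, which encodes an inhibitor of basic helix-loop-helix factors, had -1.27 and 0.02 against 0.90 and 1.15 (1.65 ± 0.54, adjusted p = 0.167), opposite to Id4. Of 20 integrins 8 were measured with a median of 0.11, and Itgb8 (1.23) was higher and Itga9 (-0.94) lower without overlap. Of 25 immediate early genes 6 were measured with a median of 0.15, and their median value was -1.27 in CD24medCD49f-/low replicate 1 and 0.24 in replicate 2, beside -0.50 and -0.36 in CD24highCD49fmed. The direction of the Wnt, integrin and immediate early medians turned negative with array medians set to 0 (-0.29, -0.27 and -0.23). They also turned with 1 array: without CD24medCD49f-/low replicate 1 the medians were -0.18 for Wnt, -0.39 for integrin, -0.61 for immediate early, -0.40 for TGF-beta and BMP, -0.63 for EGF family and -0.55 for retinoid genes. Without CD24medCD49f-/low replicate 2 the same lists had medians of 0.26, 0.70, 1.06, 0.35, 0.28 and 0.50. Of 16 EGF family genes 4 were measured (median -0.33), of 22 retinoid genes 7 (0.02, and -0.36 with array medians at 0) and of 30 innate defense genes 9 (0.32, and -0.06).

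**Figure D5:**
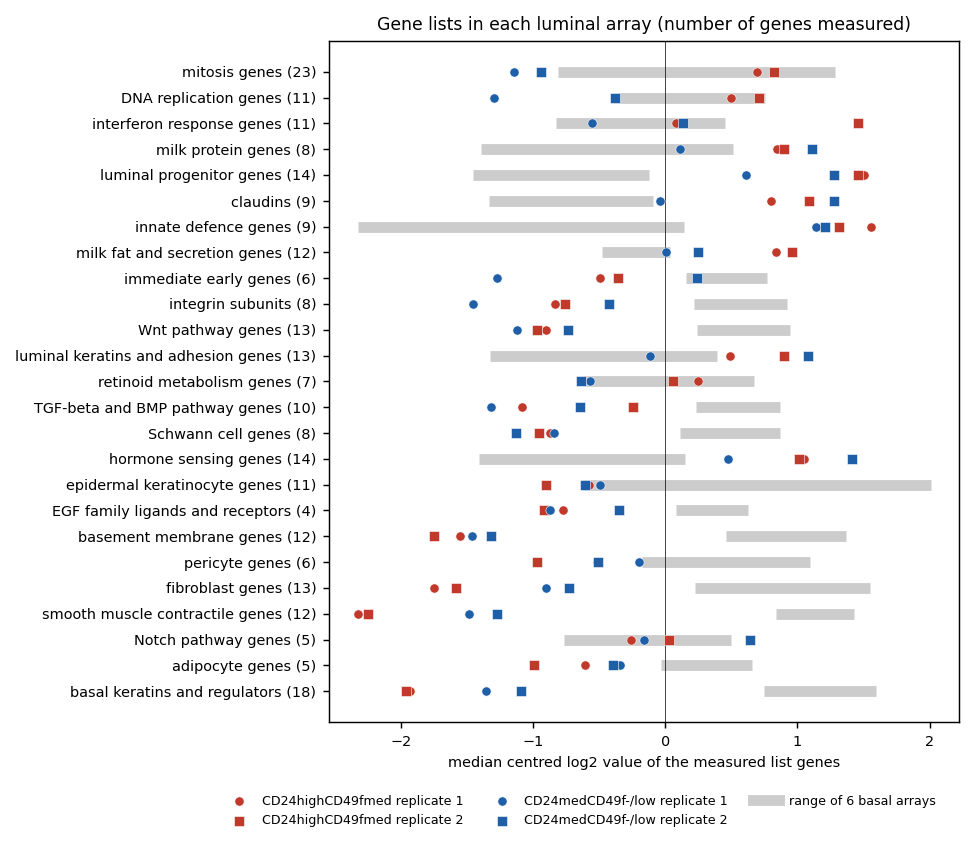
Median centered log2 value (x axis) of each gene list in each luminal array, with the number of genes measured and the range of the 6 basal arrays as a grey bar. Mitosis genes at the top separate the gates, with -1.14 and -0.94 in CD24medCD49f-/low and 0.69 and 0.82 in CD24highCD49fmed, and basal, contractile and fibroblast genes separate them the other way.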

How the data were processed

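RNA was isolated with Trizol from cells that had been stained and sorted after enzymatic dissociation of the gland, labeled from the 3' end in 2 amplification cycles and hybridized to Affymetrix mouse genome oligonucleotide arrays. The deposited values are log2 intensities that the authors normalized across 10 arrays (RMA per the methods, RMA and GCRMA per the labels, no version given), filtered by a minimum level and by range, and centered (largest absolute mean of a probe set 3e-07). Centering removed the level, so abundance and signal over background are unknown, and genes that varied less were not used here. The number of arrays limits the precision. No depth applies to arrays.

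The table held 3663 probe sets, of which 3291 had 1 gene symbol in the platform annotation, 75 several and 297 none, and 554 genes had more than 1 probe set and were averaged. Array groups were taken from the titles. Each population had its own mean in a linear model over all 10 arrays (lmFit and eBayes of limma 3.58.1 under R 4.3.3, two-sided), with 5 residual and 16.5 prior degrees of freedom. Rank products, the test of the study, was an alternative, and no set test was run. The script was tested on simulated data. Alternatives were other scalings, array weights, robust variances, a replicate block, only the luminal arrays, probe sets alone, a minimum range or difference, and each array left out.

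The comparison and the gene lists were chosen with earlier results of these data known. Named were genes whose arrays did not overlap: those called, the next 5 by size in each direction, and up to 6 of each list. Sort genes, defining markers and genes the study names for luminal cells (Elf5, Tbx3 and Cdkn1a) were added wherever measured. Promoters and their build came from RefSeq. Tgfb1i1 and Ism1 were not matched to a promoter. Array positions on the genome were not used here.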

Additional observations from a re-analysis of the deposited data

How the results depend on the processing

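The 6 called genes all kept their calls with array medians set to 0 (15 called, 2 higher and 13 lower), with robust variances (6), with the replicate number as a block (33, 23 higher and 10 lower), and by rank products at p under 0.01 (96, of which chance would give 58.6, and 4 after Benjamini-Hochberg adjustment). A minimum log2 difference of 1 left the same 6. It could remove none of them, since the smallest difference in size was -2.36, in Sparc. With probe sets tested alone 11 were called. Among the 716 genes with a range of at least 3 the count was 2, both lower. It was 0 after quantile normalization (136 at an unadjusted p under 0.05), 0 with array weights (277), where the CD24medCD49f-/low arrays had 0.359 and the CD24highCD49fmed arrays 2.659, and 0 with only the 4 luminal arrays (403), which leave 2 residual degrees of freedom. Leaving out 1 array gave from 0 to 295. The count was 0 without CD24highCD49fmed replicate 1 (147 unadjusted) or replicate 2 (258) and without any Thy-1+ or Thy-1- array (457 to 480), and 4 without either CD24medCD49fmed array. A population left with 1 array was assumed to vary like the others. The labels do not pair the replicate numbers, and the deviations of the 2 luminal gates within their pairs correlated at 0.521, which with fewer than 3 pairs does not settle a pairing. Features that did not overlap numbered 1517 in all, 1273 with array medians set to 0, 1100 after quantile normalization, and from 1770 to 2668 with 1 array left out, where fewer arrays overlap less by construction. Of 117 named genes, 107 kept their direction in every setting, and of the 111 not called 26 passed in at least 1. The causes of these differences were not tested.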

Other observations

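The arrays of CD24medCD49f-/low cells differed from each other by over 1 on the log2 scale in 779 features that were higher in replicate 2 and 353 that were higher in replicate 1. The genes below were chosen after their values were seen, as those with the largest differences, and have no test. Fkbp4, a co-chaperone of steroid receptors, was at -2.71 in replicate 1 and 1.19 in replicate 2, beside -1.76 and -1.16 in the CD24highCD49fmed arrays. The others of the 8 with the largest excess in replicate 2 were Selenow, a selenoprotein (-2.87 and 0.85), Arpc4, a subunit of the actin nucleating complex (-2.44 and 1.00), Calr, the chaperone calreticulin (-2.82 and 0.73), Ppib, cyclophilin B (-2.73 and 0.75), Ssr4, a subunit of the translocon-associated complex (-2.92 and 0.84), Aldoa, the glycolytic enzyme aldolase A (-2.60 and 1.08), and Socs3, a feedback inhibitor of cytokine signaling (-3.07 and 0.57). Higher in replicate 1 were Prol1 (1.61 and -1.50), Fgf13 (2.58 and -0.39) and Foxq1 (1.33 and -1.27).

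By list, replicate 2 minus replicate 1 of CD24medCD49f-/low had a median of 1.86 in immediate early genes, 1.53 in luminal keratins and adhesion genes, 1.14 in claudins and 1.00 in luminal progenitor genes, beside 0.09 over all features. It was 0.30 in mitosis genes and 0.30 in contractile genes. In CD24highCD49fmed cells the same difference had its largest list median, leaving out the single erythroid gene, in interferon response genes, at 0.86, beside -0.03 over all features.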
